A study of Mus musculus with 14 samples.

Results

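The matrix metalloproteinases (MMPs), the ADAMTS proteases and the tissue inhibitors of metalloproteinases (TIMPs) were followed in mouse kidney RNA. Members were the protein-coding genes with a GENCODE symbol of the form Mmp, Adamts or Timp and a number, and a total above 10 counts over the 14 libraries. Of the 46 symbols of this form, 38 passed this minimum, out of 22339 genes that did so in all, and they comprised 17 MMPs, 17 ADAMTS proteases and the 4 TIMPs. The other 8 were Mmp24, Mmp27 and Mmp21, with totals of 8, 7 and 3 counts, and Mmp1a, Mmp1b, Mmp10, Adamts18 and Adamts19, with no count in any library.

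Each library came from 1 whole kidney of a female CD-1 mouse, an outbred stock with wild-type genotype, at 18 weeks of age. Term nondiabetic mice (T-ND, n = 4) and preterm nondiabetic mice (PT-ND, n = 3) had no streptozotocin (STZ), a toxin of the insulin-producing beta cells, whereas term diabetic mice (T-D, n = 4) and preterm diabetic mice (PT-D, n = 3) were given repeated low doses of it as young adults. Preterm pups were delivered by Caesarean section 1 day early and raised by foster mothers that drank acepromazine. Term pups were born vaginally and stayed with their own mothers. The effects of early birth, Caesarean delivery, fostering and the drug cannot be told apart. Some PT-D mice and no T-D mice had a second course of STZ, and the labels do not mark which. All mice received cationic ferritin for imaging and tribromoethanol before the kidney was taken, and the pedicle of the kidney used for RNA was clamped before fixative entered the circulation. The 14 libraries held between 16697246 and 28673176 counts on genes, and T-D replicate 4 had a count for the fewest genes, 19589. The PT-D libraries had a count for the most genes, 21632, 22818 and 22814, and held 21079460, 26187982 and 23194392 counts. A suffix a of unstated meaning marks the names of 5 libraries, which are replicate 1 of T-ND, T-D and PT-D and replicate 2 of T-ND and PT-ND. Markers of proximal tubule and podocytes were high in all libraries, with summed normalized counts of at least 157500 and 3761.

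MMPs are zinc-dependent enzymes that are made as inactive precursors and cut collagens, gelatin, laminin and many signalling proteins outside the cell. ADAMTS proteases carry thrombospondin repeats that anchor them in the matrix, and members of the family cut proteoglycans such as versican, trim the ends of procollagen or cut von Willebrand factor. TIMPs bind the active site of these enzymes, and in diabetic kidney the balance of proteases and inhibitors is studied for its part in thickening of the glomerular basement membrane and scarring of the interstitium. Mmp8 and Mmp9 encode neutrophil collagenase and gelatinase B, both of which are stored in granules of neutrophils, and Mmp9 is also made by macrophages and by epithelial cells.

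The members lay on 16 chromosomes, and 9 of the 38 were on chromosome 9. There, 10 MMP genes stood side by side over 427.1 kilobases (GRCm39, chr9:7272514-7699587), in the order Mmp13, Mmp12, Mmp1b, Mmp3, Mmp1a, Mmp10, Mmp8, Mmp27, Mmp20 and Mmp7. This stretch held genes of very unequal level, from Mmp13 with 1035 counts in total to Mmp1a, Mmp1b and Mmp10 with none. Mmp9 is outside it, on chromosome 2 (chr2:164780439-164797771, plus strand), as are Mmp11 on chromosome 10 (chr10:75759055-75772330, minus strand), Adamts5 on chromosome 16 (chr16:85653061-85698716, minus strand) and Timp1 on chromosome X (chrX:20736316-20740976, plus strand).

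RefSeq promoter windows (GRCm38.p6) were matched for 25 of the 38 members, and those of Mmp2, Mmp9, Mmp16, Mmp17, Mmp19, Adamts4, Adamts5, Adamts6, Adamts7, Adamts8, Adamts10, Adamts15 and Adamts16 were not used here. The 250 bases before the start site are shown for 5 members that differed between groups by edgeR or DESeq2, to set the promoters inside the chromosome 9 stretch (Mmp13, Mmp3 and Mmp8) beside those outside it (Mmp11 and Timp1). Capitals mark an AP-1 site (TGA and TCA with any 1 base between), a TATA box (TATAAA) or a GC box (GGGCGG), searched on both strands, and each sequence runs 5′ to 3′ on the strand of its gene.
Mmp13, chr9:7272264-7272513, plus strand: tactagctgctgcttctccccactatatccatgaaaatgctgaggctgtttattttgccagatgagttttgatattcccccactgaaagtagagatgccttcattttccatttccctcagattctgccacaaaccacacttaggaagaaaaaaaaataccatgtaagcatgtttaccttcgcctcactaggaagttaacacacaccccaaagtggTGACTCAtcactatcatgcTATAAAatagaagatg
Mmp3, chr9:7445572-7445821, plus strand: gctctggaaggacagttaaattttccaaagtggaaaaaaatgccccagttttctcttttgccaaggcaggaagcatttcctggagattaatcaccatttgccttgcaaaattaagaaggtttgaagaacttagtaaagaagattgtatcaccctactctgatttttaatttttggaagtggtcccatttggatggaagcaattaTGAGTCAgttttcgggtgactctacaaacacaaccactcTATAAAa
Mmp8, chr9:7558179-7558428, plus strand: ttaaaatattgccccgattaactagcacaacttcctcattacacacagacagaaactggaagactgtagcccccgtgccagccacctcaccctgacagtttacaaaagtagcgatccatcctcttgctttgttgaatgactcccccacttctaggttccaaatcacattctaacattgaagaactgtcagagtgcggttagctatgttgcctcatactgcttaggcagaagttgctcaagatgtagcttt
Mmp11, chr10:75932503-75932752, minus strand: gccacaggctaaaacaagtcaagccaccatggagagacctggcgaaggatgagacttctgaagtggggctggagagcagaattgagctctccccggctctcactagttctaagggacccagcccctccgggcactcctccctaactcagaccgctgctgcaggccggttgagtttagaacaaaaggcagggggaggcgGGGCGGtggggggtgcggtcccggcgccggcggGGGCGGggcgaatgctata
Timp1, chrX:20869916-20870165, plus strand: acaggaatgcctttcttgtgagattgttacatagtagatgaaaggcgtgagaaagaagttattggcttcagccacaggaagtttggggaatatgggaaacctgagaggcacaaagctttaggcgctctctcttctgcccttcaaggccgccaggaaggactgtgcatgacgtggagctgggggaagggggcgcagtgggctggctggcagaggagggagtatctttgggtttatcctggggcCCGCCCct
Mmp13 and Mmp3 each held an AP-1 site and a TATA box close to the start, with the first base of the AP-1 site 35 and 46 bases before it. The Mmp8 window held none of the 3 motifs, and the windows of Mmp11 and Timp1 held GC boxes only. Over all 25 members with a window, an AP-1 site was found in 5 (Mmp3, Mmp7, Mmp12, Mmp13 and Mmp20, all in the chromosome 9 stretch), against 6.75% of all 32851 windows. A TATA box was found in 5 members, against 12.4% of all windows, and a GC box in 14, none of them in the chromosome 9 stretch, against 32.7%. A match says only that these letters were present.

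Levels between genes were compared as counts per kilobase of exon after scaling to library size (RPKM), averaged over the 14 libraries. Timp3, which is held in the matrix and also inhibits ADAMTS proteases, was the most abundant member at 86.4, with a range over libraries of 39.3 to 120, and made up 54.6% to 77.4% of the summed level of all members. Timp2 followed at 10.4 and Adamts1, a protease of versican and aggrecan, at 9.99. The ranges of these last 2 over libraries overlapped widely. Timp1, a secreted inhibitor that is induced in injured tissue, stood at 4.94 and spanned 0.810 to 12.5. Mmp23, a small MMP anchored in the membrane, stood at 1.86. Only 10 members had a mean level above 1, and Mmp9 ranked 20th at 0.433. The precision of low members is limited by counting, since 5 members had 3 counts or fewer in at least 7 libraries and 27 had more than 3 counts in all 14.

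**Figure D1:**
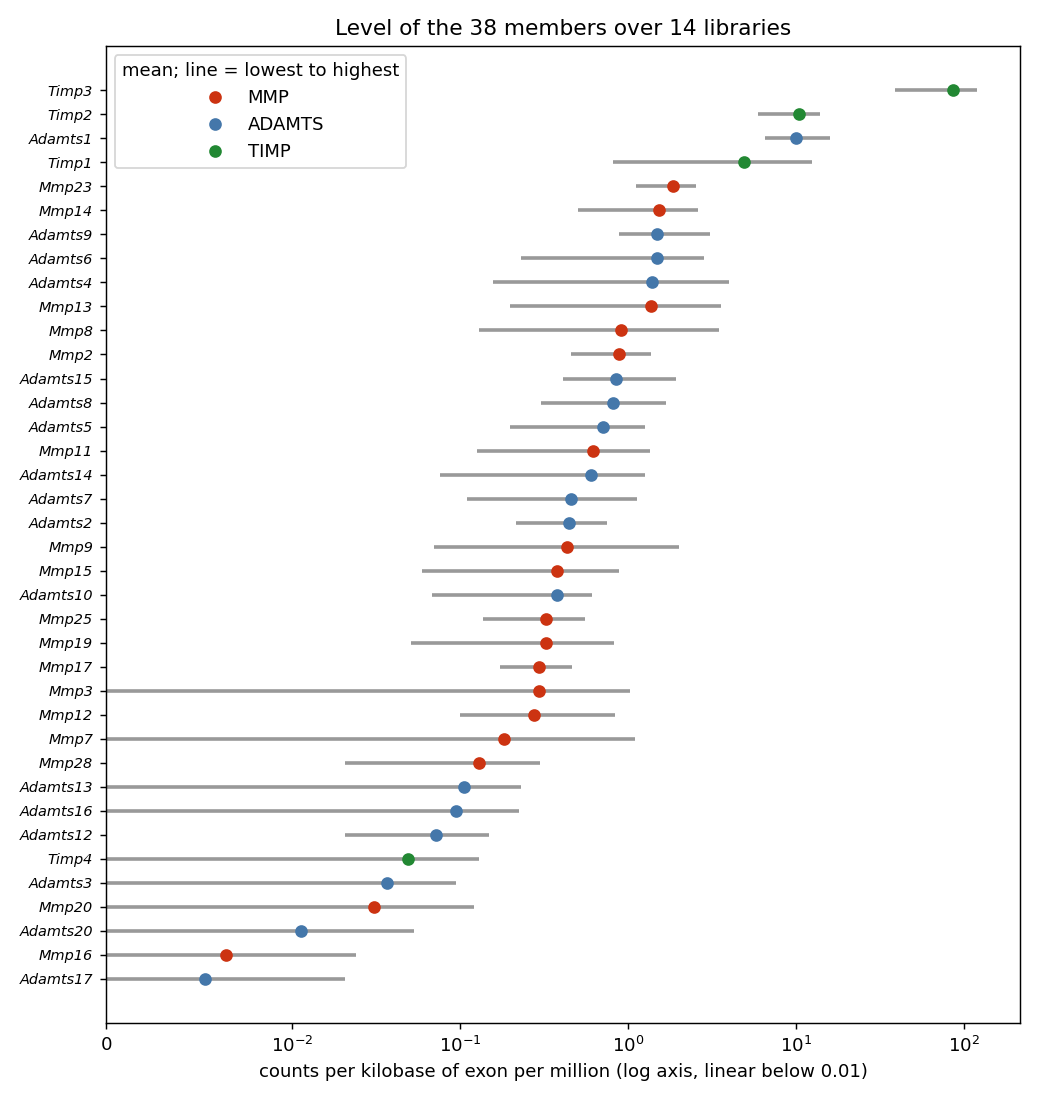
Level of the 38 members as RPKM (log axis, linear below 0.01), with the mean over 14 libraries as a point and the range from lowest to highest library as a line, coloured by family. Timp3 at 86.4 stands above all other members, and Mmp9 at 0.433 lies in the middle of the order.

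Members were called in a comparison by the edgeR quasi-likelihood test at an adjusted p under 0.05 over all genes tested together with a change of more than 1 in either direction on the log2 scale, and the counts are set beside the share of all genes called in the same way. In PT-D against T-ND, 2 of the 38 members were called, Mmp8 and Mmp9, both higher in PT-D, where 1.45% of 22310 genes were called. DESeq2 called 5, adding Timp1, Adamts4 and Mmp13, all higher, where it called 4.32% of genes. The median log2 fold change of the members was 0.48 and that of all genes 0.03. In PT-D against T-D, Mmp9 alone was called, higher in PT-D, where 0.193% of 22294 genes were called. DESeq2 called 4, adding Mmp8, Mmp11 and Adamts5, where it called 2.96% of genes. In PT-D against PT-ND, edgeR called Mmp8, Mmp9 and Timp1, all higher, among 4.95% of 22303 genes, and DESeq2 called 5, adding Mmp3 (higher) and Adamts14 (lower), among 6.1%.

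The comparisons without PT-D gave no call in edgeR. In T-D against T-ND, 0 members were called where 0.0673% of genes were. An unadjusted p under 0.05 by edgeR was found for 9 of the 38 members and for 11.8% of genes. DESeq2 called 4 members (Mmp13 and Timp1 higher, Mmp11 and Adamts5 lower) where it called 1.32% of genes. In PT-ND against T-ND, 0 members were called where 0.0809% of genes were. An unadjusted p under 0.05 by edgeR was found for 7 of the 38 members and for 10.7% of genes. DESeq2 called Mmp13 and Adamts4, both higher, where it called 0.737% of genes. The interaction, the difference between the STZ effect in preterm mice and that in term mice, gave 4 called members, with Mmp9, Mmp11 and Adamts5 positive and Mmp13 negative, where 4.45% of 22339 genes were called. DESeq2 called 7 in it, adding Mmp8, Mmp28 and Adamts4, where it called 7.38% of genes. Where PT-D entered, an unadjusted p under 0.05 by edgeR was found for 14 of the 38 members in PT-D against T-ND (24.3% of genes). It was found for 6 in PT-D against T-D (22.3%), 11 in PT-D against PT-ND (29.1%) and 9 in the interaction (24.5%). These comparisons share groups of mice and are not independent of each other.

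**Figure D2:**
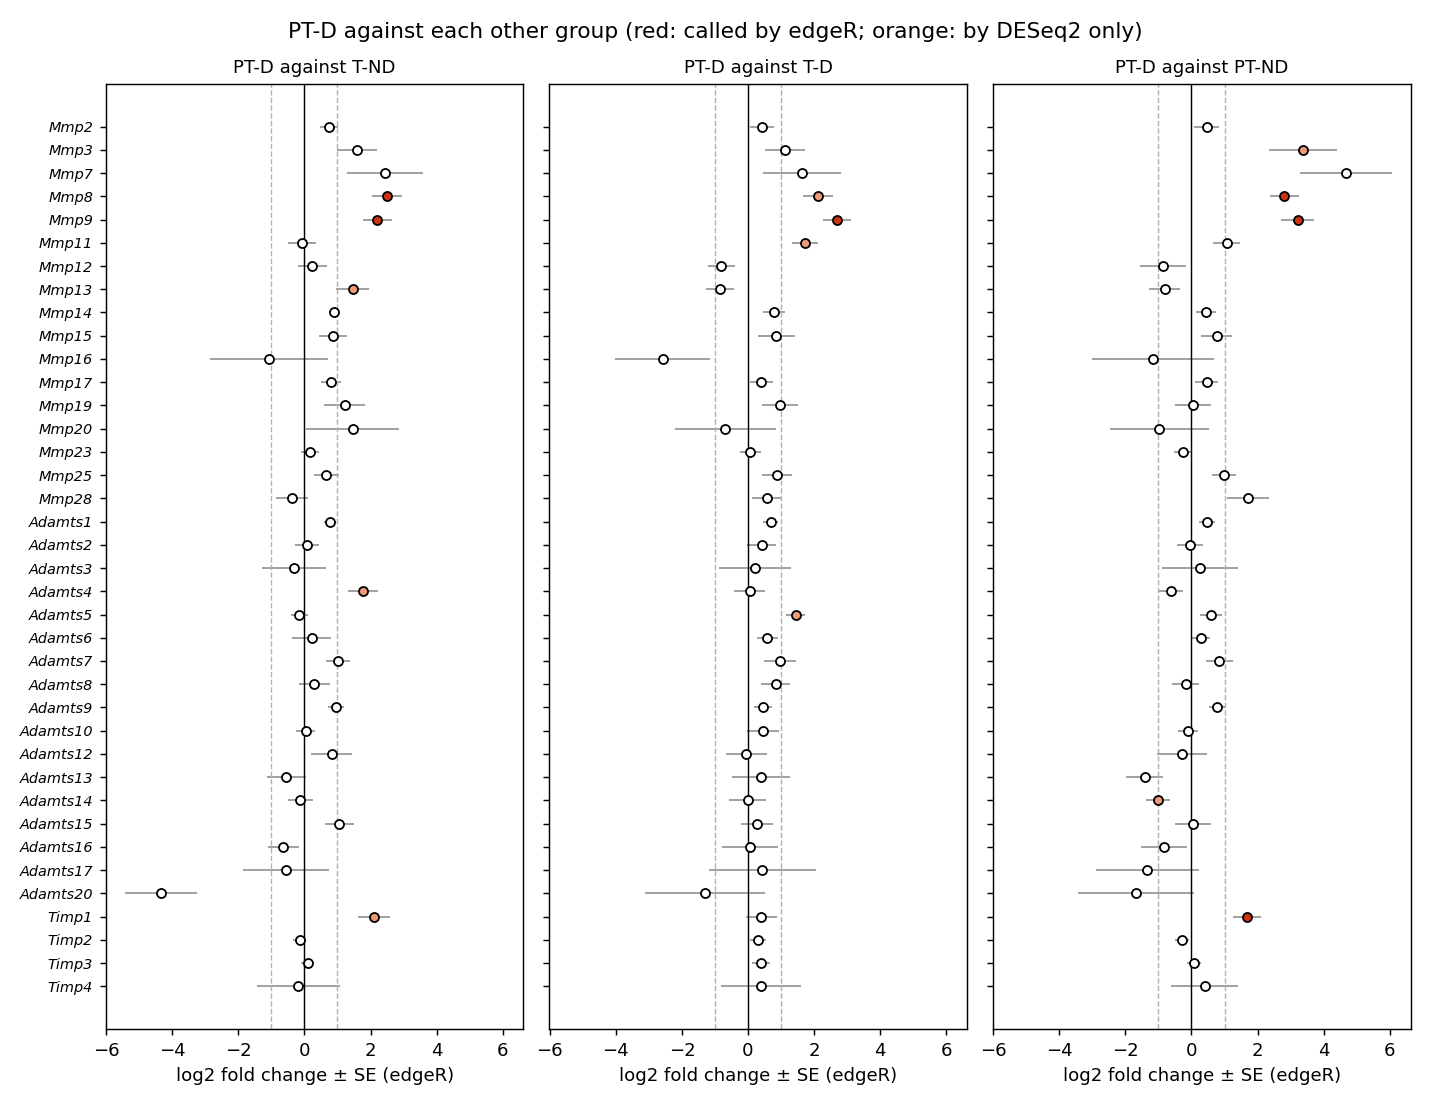
Fold changes on the log2 scale ± standard error (edgeR) for each of the 38 members in PT-D against T-ND, T-D and PT-ND, with dashed lines at −1 and 1. Mmp8 and Mmp9 lie above 2 in all 3 panels, and Timp3 and Timp2 lie within 0.4 of 0 in each.

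Among the gelatinases, which cut denatured collagen and basement membrane collagen IV, Mmp9 was high in PT-D and low in every other group. Its normalized counts were 150.5, 67.0 and 66.4 in the 3 PT-D libraries. They were 17.8, 10.96, 33.5 and 19.3 in T-ND, 20.4, 14.6, 10.7 and 12.9 in T-D, and 5.21, 13.6 and 11.5 in PT-ND. PT-D did not overlap with any group, and its replicate 1 was well above the other two. On the log2 scale Mmp9 in PT-D was higher by 2.20 against T-ND (standard error 0.44, adjusted p = 0.0372 by edgeR), 2.69 against T-D (0.42, 0.031) and 3.22 against PT-ND (0.50, 0.00547). STZ thus went with a log2 difference of −0.50 (standard error 0.46) in Mmp9 in term mice, which was not called, and of 3.22 in preterm mice, and the interaction was 3.70 (standard error 0.67, adjusted p = 0.0163 by edgeR).

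The call of Mmp9 against PT-ND was kept in all 6 fits that left out 1 library, and that of the interaction in all 14. Against T-ND it was kept only without T-ND replicate 3, with adjusted p-values of 0.0125 in that fit and up to 0.116 without T-ND replicate 1. Against T-D it was lost without T-D replicate 2, T-D replicate 3 or PT-D replicate 1 (adjusted p = 0.0504, 0.0994 and 0.0865), and with the filterByExpr filter (0.0516). In the libraries without the suffix a, chosen as a subset after the values were seen, PT-D against T-ND had 2 libraries a group, the log2 fold change of Mmp9 was 1.32 and it was not called (adjusted p = 0.191).

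Mmp2, the other gelatinase, differed little. Its group means were 50.1 ± 11.2 normalized counts (SD, n = 4) in T-ND, 62.4 ± 25.7 (n = 4) in T-D, 61.1 ± 29.6 (n = 3) in PT-ND and 84.1 ± 16.1 (n = 3) in PT-D. The largest of its log2 fold changes, 0.74 in PT-D against T-ND, had an adjusted p of 0.139 by edgeR.

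Mmp8, the neutrophil collagenase, followed the same groups as Mmp9. It had 172, 105 and 92.8 normalized counts in PT-D. The highest of the other 11 libraries was T-D replicate 2 at 52.4, and the remaining 10 lay between 6.39 and 31.7, so that PT-D did not overlap with any group. Mmp8 in PT-D was higher on the log2 scale by 2.50 against T-ND (standard error 0.45, adjusted p = 0.0302 by edgeR) and 2.81 against PT-ND (0.43, 0.00508), whereas 2.13 against T-D (0.45) was not called (adjusted p = 0.0685 by edgeR, 0.000889 by DESeq2). The call against PT-ND was kept in all 6 fits without 1 library. That against T-ND was kept in 2 of 7, those without T-ND replicate 2 or 3, and rose to an adjusted p of 0.0927 without T-ND replicate 1. The interaction of Mmp8 was 2.43 (standard error 0.76, adjusted p = 0.0628 by edgeR), and passed without T-ND replicate 2 or T-D replicate 2 (adjusted p = 0.0411 and 0.0346).

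Mmp13, collagenase-3, showed another order of groups than Mmp8. It was lowest in T-ND, with 10.7, 29.2, 36.7 and 11.8 normalized counts. It lay at 194, 87.7, 86.1 and 74.7 in T-D, at 185, 78.0 and 63.5 in PT-ND and at 31.9, 72.2 and 81.6 in PT-D. T-ND did not overlap with T-D or PT-ND, and its highest library exceeded 1 PT-D library. Against T-ND, the log2 fold change of Mmp13 was 2.29 in T-D (standard error 0.46, adjusted p = 0.106 by edgeR, 0.000196 by DESeq2) and 2.28 in PT-ND (0.50, 0.177 by edgeR, 0.00283 by DESeq2), the latter 1.64 without PT-ND replicate 1. The interaction was −3.11 (standard error 0.72, adjusted p = 0.0291 by edgeR), and it was lost without T-ND replicate 4 (adjusted p = 0.0512), PT-ND replicate 3 (0.0581), PT-D replicate 2 (0.0536) or PT-D replicate 3 (0.0746). Without PT-ND replicate 1 it was −2.49 (0.0472). The log2 difference with STZ was 2.29 in term mice and −0.81 in preterm mice (standard error 0.46), neither of them called by edgeR.

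**Figure D3:**
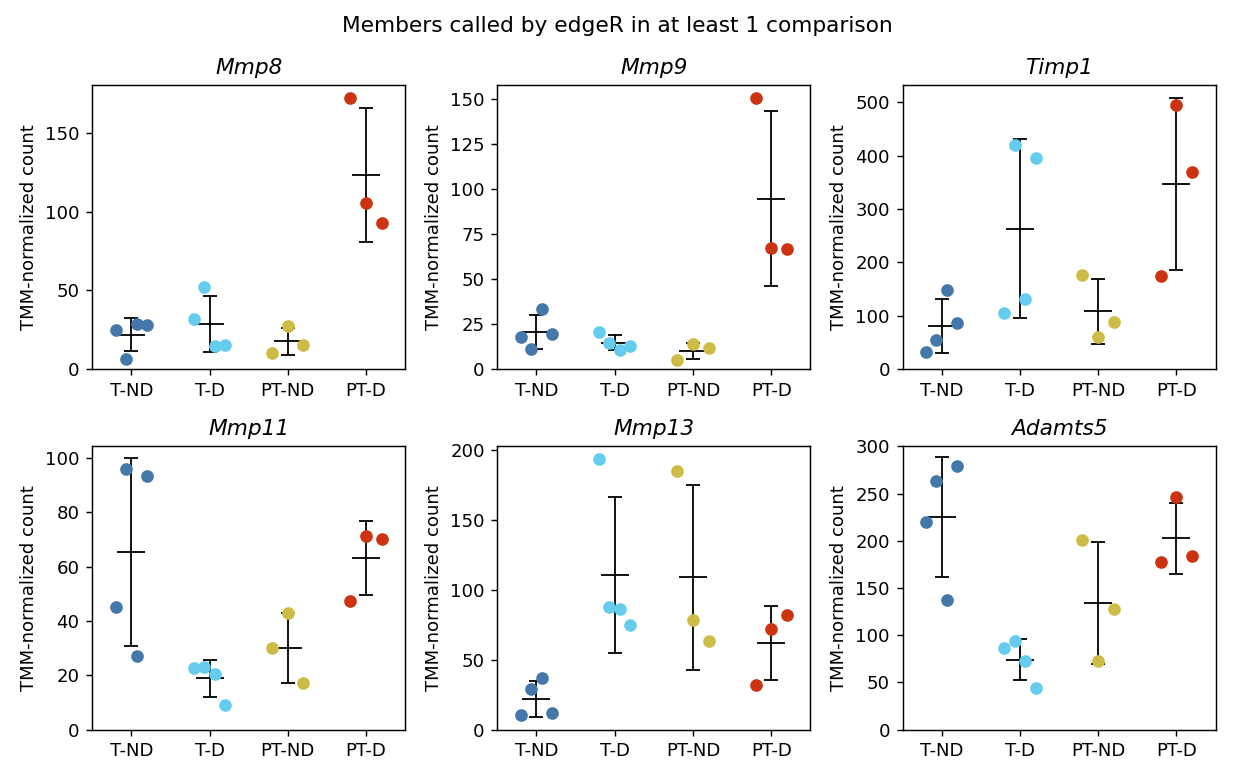
TMM-normalized counts of the 6 members called by edgeR in at least 1 comparison, 1 point per library, with the mean and SD of each group as a bar and whiskers. The 3 PT-D libraries stand above all others for Mmp8 (92.8 to 172) and Mmp9 (66.4 to 150.5), and T-D lies lowest on average for Mmp11 and Adamts5.

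Among the stromelysins and matrilysin, Mmp11, which is known from the stroma of tumours and acts on few classical matrix proteins, was low in T-D. It had 22.7, 23.1, 20.6 and 9.01 normalized counts in T-D, against 45.1, 95.9, 27.2 and 93.5 in T-ND and 47.4, 71.5 and 70.4 in PT-D. PT-ND, at 30.2, 43.0 and 17.3, overlapped with both term groups. T-D did not overlap with T-ND or PT-D. Neither difference passed in edgeR (log2 fold change of T-D against T-ND −1.80, adjusted p = 0.188, and of PT-D against T-D 1.72, adjusted p = 0.0716), and both passed in DESeq2 (0.0154 and 0.00228). The interaction was 2.85 (standard error 0.65, adjusted p = 0.0288 by edgeR), and was lost without T-ND replicate 4 (0.052), PT-ND replicate 3 (0.0812), PT-D replicate 2 (0.0572) or PT-D replicate 3 (0.0801).

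Mmp3, stromelysin-1, was sparse, with 0 counts in 2 PT-ND libraries and 6.26 normalized counts in the other. PT-D held 19.2, 37.6 and 13.6, and T-ND and T-D lay between 2.74 and 15.8. PT-D was above all PT-ND and T-ND libraries and overlapped with T-D. Against PT-ND, DESeq2 called Mmp3 (adjusted p = 0.00979) and edgeR did not (adjusted p = 0.0537, and 0.0127 without PT-ND replicate 1, the PT-ND library that had counts). Mmp7, matrilysin, reached 27.2 normalized counts in PT-D replicate 3 and was at 0 in 6 libraries.

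Of the 5 membrane-type MMPs above the minimum, Mmp14, which activates the precursor of MMP2 at the cell surface, came closest to a call. It had 281, 241 and 312 normalized counts in PT-D, against 146, 150, 158 and 140 in T-ND, where the spread was small (SD 7.69, n = 4). Its log2 fold change in PT-D against T-ND, 0.90 (standard error 0.16, adjusted p = 0.0296 by edgeR), passed on p and stayed under the fold limit. T-D replicate 4 had 63.1 and PT-ND replicate 1 had 324, which made the ranges of those groups wide. Mmp25, which is carried on the surface of neutrophils, had 43.8, 56.4 and 59.2 normalized counts in PT-D and 22.95, 32.8 and 25.4 in PT-ND, and was not called (adjusted p = 0.105 by edgeR).

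Among the other MMPs, Mmp28, epilysin, was called in the interaction by DESeq2 and not by edgeR (2.67, adjusted p = 0.0575). The edgeR test passed with the filterByExpr filter (0.0447) or without T-ND replicate 3 (0.0451), and the estimate moved to 3.55 without PT-ND replicate 3 and to 1.53 in the libraries without the suffix a. Its normalized counts were 30.6 ± 16.1 (SD, n = 4) in T-ND, 15.5 ± 6.39 (n = 4) in T-D, 7.17 ± 5.83 (n = 3) in PT-ND and 23.6 ± 1.51 (n = 3) in PT-D. Another gene shares 12.9% of its exon length. Mmp23 was called in no comparison, with group means between 90.4 and 121 normalized counts. Mmp12, the macrophage metalloelastase, had 1 PT-ND library at 123 and 13 libraries between 14.6 and 63.4, and was called in none.

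Among the 7 ADAMTS proteases that cut proteoglycans, Adamts5, an aggrecanase, was lowest in T-D. It had 86.1, 93.8, 73.2 and 43.8 normalized counts there, against 220, 263, 137 and 279 in T-ND and 178, 246 and 184 in PT-D. PT-ND spread from 72.4 to 201. T-D overlapped with PT-ND alone. As for Mmp11, the differences between T-D and T-ND (log2 fold change −1.61, adjusted p = 0.0821) and between PT-D and T-D (1.44, 0.0664) missed the edgeR threshold and passed in DESeq2 (9.26e-05 and 0.000366). The interaction was 2.19 (standard error 0.48, adjusted p = 0.0258 by edgeR), and was lost without PT-ND replicate 2 (0.0537) or 3 (0.0704) or without PT-D replicate 2 (0.0538) or 3 (0.0713). Without T-ND replicate 3, Adamts5, Mmp11 and Mmp13 were all called in T-D against T-ND (adjusted p = 0.0103, 0.0347 and 0.0216 by edgeR).

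Adamts4, the other well-known aggrecanase, had its lowest values in T-ND, as Mmp13 did. It had 34.5, 81.3, 98.5 and 20.4 normalized counts in T-ND, 250.3, 358, 107 and 61.8 in T-D, 519, 178 and 235 in PT-ND and 237, 148 and 221 in PT-D. Both preterm groups lay above all T-ND libraries, and T-D overlapped with T-ND. The log2 fold change against T-ND was 1.77 in PT-D (adjusted p = 0.0641 by edgeR, 0.00352 by DESeq2) and 2.40 in PT-ND (0.161 by edgeR, 0.000608 by DESeq2), the latter 1.78 without PT-ND replicate 1. Adamts1 stood at 1549 ± 292 normalized counts (SD, n = 3) in PT-D and at 908 ± 173 (n = 4) in T-ND, a log2 fold change of 0.76 (adjusted p = 0.0547 by edgeR).

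The remaining ADAMTS proteases gave no call in edgeR. Adamts14, which trims procollagen at its amino end, fell by 1.01 on the log2 scale in PT-D against PT-ND (DESeq2 adjusted p = 0.0348, edgeR 0.0984), from 115 ± 40.1 normalized counts (SD, n = 3) to 57.0 ± 20.1 (n = 3). Adamts2 and Adamts3, which act on the same substrates, were called by neither tool. Adamts13, the von Willebrand factor protease, had 8.21, 6.77 and 7.20 normalized counts in PT-D and 22.95, 15.8 and 20.8 in PT-ND, and was not called (adjusted p = 0.118 by edgeR).

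Adamts9, which like Adamts1 cuts versican, had 948, 552 and 473 normalized counts in PT-D against 332, 269, 436 and 313 in T-ND, with no overlap. Its log2 fold change there was 0.96 (standard error 0.25, adjusted p = 0.0634 by edgeR). Adamts15 spread from 86.8 to 409 over the 14 libraries, with its highest values in PT-D replicate 2 and PT-ND replicate 1, and Adamts6 from 36.5 to 445, both ends of that range in T-ND. Adamts20 was counted mainly in T-ND, at 5.37 to 13.1 normalized counts, and was at 0 in 6 libraries of the other groups. At such counts its difference between PT-D and T-ND was not called (adjusted p = 0.0584 by edgeR).

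Set out by role, the medians of PT-D against T-ND on the log2 scale were 1.98 for the 2 collagenases above the minimum, 1.47 for the gelatinases, 1.59 for the stromelysins and matrilysin and 0.80 for the membrane-type MMPs. They were 0.76 for the ADAMTS proteases that cut proteoglycans, 0.92 for the pair that cuts cartilage oligomeric matrix protein (Adamts7 and Adamts12), −0.13 for the procollagen proteases and −0.02 for the TIMPs. The 5 other MMPs stood at 0.23, the 4 other ADAMTS proteases at −0.26 and Adamts13 at −0.55, against 0.03 for all genes. In T-D against T-ND the medians of all members and of all genes were both near 0 (0.02 and −0.02), and that of the members was −0.40 without T-D replicate 2. In PT-ND against T-ND the members' median was 0.19, and −0.13 without PT-ND replicate 1. Many members were lowest in T-D replicate 4, for instance Mmp14, Mmp15, Adamts7, Adamts10 and Adamts14. Without that library, 2 members were called in PT-D against T-D, Mmp9 (adjusted p = 0.0379 by edgeR) and Adamts5 (0.0438).

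Of the 4 TIMPs, Timp1 alone was called. It had 174, 496 and 370.3 normalized counts in PT-D, 176, 59.9 and 87.7 in PT-ND, 32.1, 53.9, 148 and 87.1 in T-ND and 105, 419, 132 and 396 in T-D. PT-D lay above T-ND, overlapped with PT-ND by 1 library and overlapped in part with T-D. The log2 fold change was 1.68 against PT-ND (standard error 0.43, adjusted p = 0.0287 by edgeR), and it was lost without PT-ND replicate 2 (0.0906), PT-ND replicate 3 (0.11), PT-D replicate 2 (0.074) or PT-D replicate 3 (0.0682), and in the joint fit of all 14 libraries (0.0861). Against T-ND, 2.10 narrowly missed the threshold (standard error 0.48, adjusted p = 0.0503 by edgeR, 0.00053 by DESeq2) and passed without T-ND replicate 3 (0.0116) or PT-D replicate 1 (0.0478). The edgeR test also passed with RLE (0.0498) or upper quartile normalization (0.0447), the filterByExpr filter (0.0475), no count filter (0.0113) or the suffix as covariate (0.0125). It missed in the joint fit (0.0558), with the replicate block (0.0552) and in the libraries without the suffix a (0.0638). STZ went with log2 differences of 1.68 in both term and preterm mice, and Timp1 was not called in the interaction by either tool.

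Timp2 and Timp3, the abundant inhibitors, were level across groups. Timp3 had group means of 14661 ± 3100 normalized counts (SD, n = 4) in T-ND, 12041 ± 3886 (n = 4) in T-D, 15031 ± 4159 (n = 3) in PT-ND and 15805 ± 2909 (n = 3) in PT-D. The lowest library was T-D replicate 4 at 6469. Its log2 fold changes in the 5 pairs of groups lay between −0.30 and 0.39, and those of Timp2 between −0.45 and 0.30. Timp4 had at most 20.3 normalized counts and 3 counts or fewer in 5 libraries, a depth at which no difference could be seen. Timp3 shares 21.3% and Timp4 14.7% of exon length with a synapsin gene on the other strand, and reads on both genes were left uncounted in these unstranded libraries. Timp1 lies within Syn1 and shares no exon base with it.

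**Figure D4:**
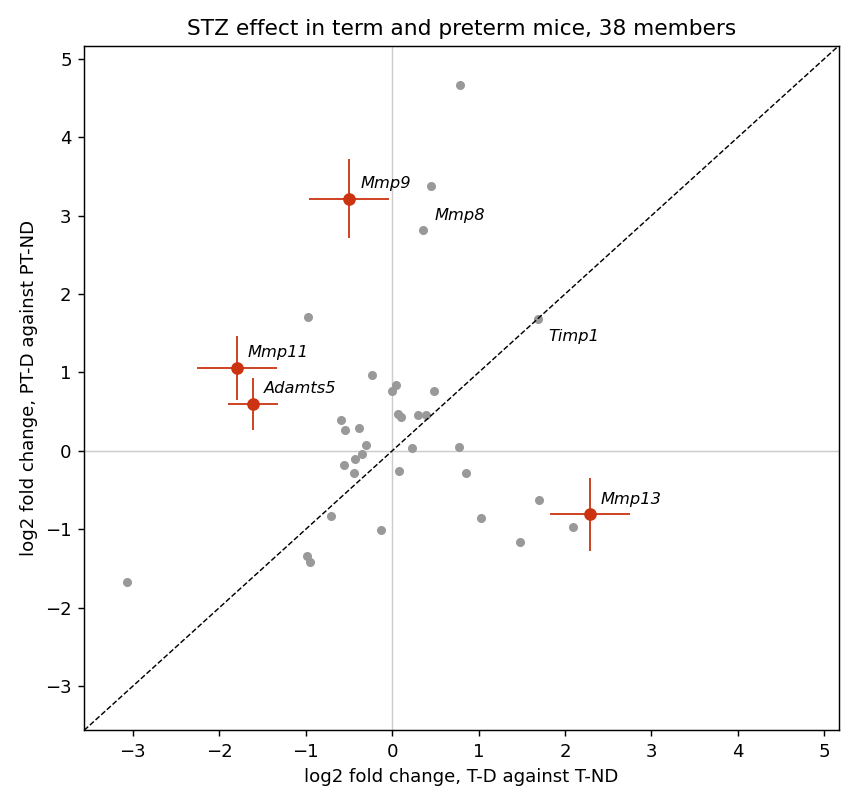
The log2 fold change of each of the 38 members in T-D against T-ND (horizontal) and PT-D against PT-ND (vertical), with the 4 members called in the interaction in red with their standard errors and a dashed line where both effects are equal. Mmp9 (−0.50 and 3.22), Mmp11 and Adamts5 lie above the line, Mmp13 (2.29 and −0.81) below it, and Timp1 on it.

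Other genes of matrix turnover were counted in 5 lists. Of the 15 measured plasminogen activators, activating proteases and their inhibitors, Serpine2, an inhibitor of thrombin and plasminogen activators, rose in PT-D against T-ND, T-D and PT-ND (log2 fold changes 1.39, 1.16 and 1.22, adjusted p = 0.0279, 0.0377 and 0.00542 by edgeR). Plaur, the urokinase receptor, rose in PT-D (1.21) and in PT-ND (1.46) against T-ND, and its interaction was −1.32 (adjusted p = 0.0441 by edgeR). In PT-D against PT-ND, Plat, tissue plasminogen activator, rose by 1.08 and Plau, urokinase, fell by 1.05 on the log2 scale. Of 13 measured matrix substrates, Col4a1, Col4a2, Fn1 and Nid1 rose in PT-D against T-ND, and Col4a1 and Col4a2, the main chains of basement membrane collagen IV, also rose against PT-ND. Col4a1 had 9973 ± 1750 normalized counts (SD, n = 3) in PT-D and 3902 ± 1216 (n = 4) in T-ND.

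Of 13 other inhibitors, inducers and uptake receptors, Lcn2, whose protein binds MMP9, rose by 2.77 and Pcolce2, an enhancer of procollagen processing, fell by 1.79 on the log2 scale in PT-D against PT-ND. None of these 13 passed in another comparison. None of the 7 ADAMTS-like genes and 8 ADAM sheddases was called by edgeR in any of the 6 comparisons, and their medians in PT-D against T-ND were 0.58 and 0.39, against 0.03 for all genes.

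Summed markers of neutrophils were highest on average in PT-D, as were Mmp8 and Mmp9. The list holds 16 genes, of which 14 were above the minimum. Elane and Stfa3 were under it, and Mpo was near 0. Stfa2 had a mean of 7.17 normalized counts in PT-D and at most 1.59 in the other groups. Prtn3 had a higher mean in T-D (10.95) than in PT-D (5.95). The summed normalized count was 4667 to 8533 in PT-D, 1741 to 7738 in T-D, 659 to 4283 in T-ND and 995 to 2095 in PT-ND. PT-D thus overlapped with T-D. Much of this was Lcn2, which injured tubules also make. Without Lcn2, left out after the values were seen, the sums were 1618 to 5596 in PT-D, 420 to 1490 in T-D, 418 to 1178 in T-ND and 288 to 1491 in PT-ND, so that PT-D did not overlap with any group. Cxcr2 and Ltf were called in PT-D against T-ND, Csf3r, Cxcr2, Lcn2, Ltf and Ngp in PT-D against PT-ND, and none of the list in PT-D against T-D.

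PT-D replicate 1, with the highest Mmp8 and Mmp9, also had the highest neutrophil sum without Lcn2, 5596. On the full list its sum was 8533, close to the 8518 of PT-D replicate 3. T-D replicates 4 and 2, at 7738 and 6801, stood above PT-D replicate 2 at 4667 on that list. Without Lcn2, PT-D replicates 2 and 3 had sums of 1618 and 1727, Mmp9 at 67.0 and 66.4 and Mmp8 at 105 and 92.8. T-D replicates 2 and 4 and PT-ND replicate 3, with sums of 1477 to 1491 without Lcn2, had Mmp9 between 11.5 and 14.6. Their Mmp8 was 52.4, 15.4 and 15.0. The part of neutrophil number in the result was not tested, and in whole kidney more cells of a type cannot be told apart from more RNA per cell.

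**Figure D5:**
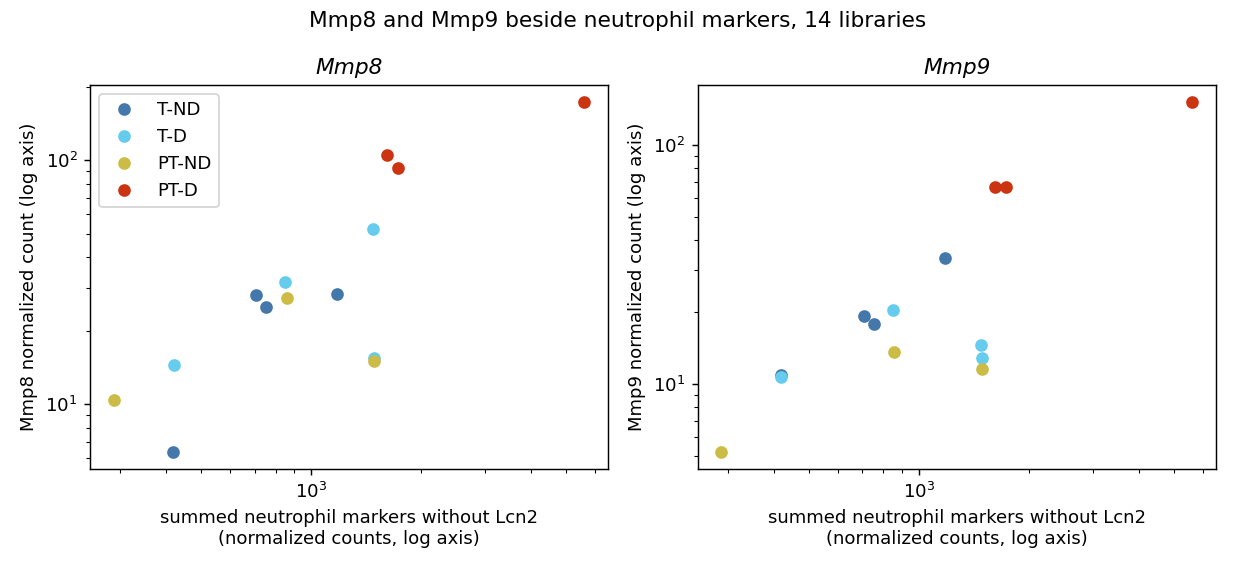
Normalized counts of Mmp8 and Mmp9 in each of the 14 libraries against the summed normalized counts of the neutrophil markers without Lcn2 (both axes log), coloured by group. PT-D replicate 1 is highest on both axes at 5596, and the other PT-D libraries (1618 and 1727) lie above the libraries of other groups, with sums up to 1491. Mmp8 is 105 and 92.8 in these PT-D libraries and at most 52.4 in other groups, and Mmp9 is 67.0 and 66.4 against at most 33.5.

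Markers of other cell types were summed in the same way. The proximal tubule sum was 157500 to 266000 normalized counts in PT-D and 269100 to 560700 in the other groups, and a single gene carried this, Kap, with a mean of 49320 in PT-D and of 214100 to 292800 elsewhere. Without Kap, left out after the values were seen, the sum was 151900 to 185800 in PT-D and 124600 to 194800 in the other groups, and no gene of the list was called. The endothelial sum was 11280 to 14900 in PT-D and 5210 to 12210 elsewhere, and the podocyte sum 11070 to 14400 against 3761 to 11270, so that both overlapped slightly. In PT-D against T-ND, 4 of 7 podocyte markers (Nphs1, Ptpro, Synpo and Wt1), 1 of 10 endothelial markers (Cdh5) and 1 of 9 injured-tubule markers (Clu) were called higher. All 7 measured urothelial genes had negative log2 fold changes there (median −1.51), with Krt14 called. Their sum was 64.8 to 482 in PT-D, below the 549.9 to 1345 of the T-ND and T-D libraries. PT-ND, at 132.5 to 1005, overlapped with PT-D. In PT-D against PT-ND, 4 of 10 endothelial, 4 of 9 injured-tubule and 2 of 7 podocyte markers were called, all higher. In the same comparison 2 of 12 macrophage markers (Adgre1 and Cx3cr1) and 1 of 11 fibroblast and pericyte markers (Pdgfrb) were called higher, but only 5 of each list had a positive log2 fold change (medians −0.11 and −0.05), and the macrophage sum was 2623 to 3706 in PT-D and 4113 to 4556 in PT-ND. Calls in the interaction were Egfl7, Kdr, Cx3cr1, Havcr1 and Pdgfrb, all positive, Csf3r among the neutrophil genes, also positive, and Vcam1, negative. The fat sum ranged from 3.65 to 5331 within PT-D and as widely in the other groups. The red blood cell sum ranged from 222.8 in PT-ND replicate 2 to 12620 in T-D replicate 2 and 20020 in T-D replicate 4. No adrenal, fat, cartilage or red blood cell gene was called in any comparison. The part of these cell types in the differences of the members was not tested.

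The 5 genes whose normalized counts followed Mmp9 most closely, among 12169 with a mean of at least 50, were Slc2a4rg-ps, a pseudogene, Ankrd12, Rbbp6, Snrnp48 and Capn15. Their Spearman correlations with Mmp9 over the 14 libraries lay between 0.921 and 0.952, a description over libraries that share 4 groups. All 5 had higher counts in every PT-D library than in any PT-ND or T-D library, for instance 158 to 201 for Slc2a4rg-ps in PT-D against 56.3 to 79.2 in PT-ND. They spread over less than Mmp9, with Rbbp6 at 906 to 1164 in PT-D and 730 to 784 in PT-ND.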

How the data were processed

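Kidney mRNA of 14 mice was sequenced as unstranded poly(A) libraries. The authors aligned reads with STAR (version not given in the sources used here) to GRCm39 and deposited a raw count per gene, made from reads that mapped to a single place. Reads on more than 1 gene, 6.86% to 8.09% of unique reads, were not counted and stayed out of library sizes, as did the 2.39% to 5.42% outside genes. The methods name GENCODE release 36, and symbols, lengths and positions used here are from release 39, which matched 56236 of 56980 gene IDs without version. Total counts per library were 16697246 to 28673176.

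Genes with 10 counts or fewer over all libraries were left out. Pairs of groups were fitted with edgeR 4.0.16 (R 4.3.3) on the libraries of both groups alone, with TMM, the quasi-likelihood test, two-sided, and Benjamini-Hochberg adjustment over all genes tested. The interaction used all 14 libraries. Calls needed an adjusted p under 0.05 and a log2 fold change beyond 1 in size. Normalized counts are TMM-scaled, and a count of 3 or fewer is near the detection limit. The procedure was tested on simulated data.

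The members, gene lists and tests were chosen with earlier results of these data known. Described in full were members called by edgeR and Mmp9. Named with values were members called by DESeq2 1.42.0, the 5 most abundant, the TIMPs, those at or under the minimum, called genes of the pathway and marker lists, and the 5 genes most like Mmp9. Other members named were chosen after their values were seen. Alternatives were DESeq2, other normalizations and filters, a joint fit, the library-name suffix, a replicate block, an adjusted p alone and each library left out. Replicate numbers did not pair libraries: 2 of 19 same-numbered pairs correlated above 0.1 in their deviations from group means.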

Additional observations from a re-analysis of the deposited data

Results flagged for a closer look

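The interaction test of birth and STZ passed for Mmp9 (3.70), Mmp11 (2.85), Adamts5 (2.19) and Mmp13 (−3.11), on the log2 scale.

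A library stood apart from the other 3 of its group in 9 of 76 sets of normalized counts, and chance flags about 1 in 20 such sets. Higher than the others were Mmp12 (37.6), Adamts14 (103) and Mmp16 (5.38) in T-ND replicate 4, Mmp25 (56.6) in T-ND replicate 3, Mmp13 (194) and Adamts20 (3.40) in T-D replicate 1, and Adamts17 (2.57) in T-D replicate 4. Lower than the others were Mmp8 (6.39) in T-ND replicate 2 and Mmp14 (63.1) in T-D replicate 4. The values of Mmp16, Adamts17 and Adamts20 stand against 0 in the other 3 libraries and rest on few counts.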

How the results depend on the processing

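The number of members called depended on the tool and the libraries, and no member that edgeR or DESeq2 called changed direction in that comparison under any alternative run. DESeq2 called 5 members in PT-D against T-ND, 4 in PT-D against T-D, 4 in T-D against T-ND, 5 in PT-D against PT-ND, 2 in PT-ND against T-ND and 7 in the interaction, where edgeR called 2, 1, 0, 3, 0 and 4. Without a filter on low counts edgeR called 4, 4, 2, 6 and 2 in the 5 pairs in the same order. The joint fit of 14 libraries called 4 in PT-D against T-D and 1 in T-D against T-ND, and in PT-D against PT-ND it called 3, with Mmp3 in place of Timp1. The filterByExpr filter called 0 in PT-D against T-D. The replicate block called 0 in PT-D against T-ND and moved no other count by over 1.5 times, and only 2 of the 14 libraries were most alike with their own number. In libraries without the suffix a, 0 were called in PT-D against T-ND, 0 in PT-D against T-D and 0 in the interaction, on fewer samples, and Mmp8, Mmp9 and Timp1 were called in PT-D against PT-ND. RLE, upper quartile, the suffix as covariate and an adjusted p alone left every count within 1.5 times. Leaving out each library gave 0 to 5 calls in PT-D against T-ND, 0 to 2 in PT-D against T-D, 0 to 3 in T-D against T-ND, 2 to 4 in PT-D against PT-ND, 0 to 1 in PT-ND against T-ND and 1 to 5 in the interaction. The median of the members turned from 0.02 to −0.40 in T-D against T-ND without T-D replicate 2, and from 0.19 to −0.13 in PT-ND against T-ND without PT-ND replicate 1. The cause of these shifts was not tested. With 3 or 4 libraries a group, members under 4 counts per library carry little information.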
